A study of Mus musculus with 12 samples.

Results

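The genes described here build and store fatty acids, triglycerides and phospholipids. They are 44 genes picked by symbol for their function from a table of 21899 genes. The rule used no measured value, but genes and roles were chosen with earlier results of these data known. The genes fall into 6 roles. These are fatty acid synthesis, elongation and desaturation (16 genes), regulators of lipogenesis (3), phospholipid head group enzymes (5), glycerolipid assembly (12), lipid droplets and lipolysis (5), and acyl chain activation and remodelling (3). They were measured by RNA-seq in the colon of 12 Mus musculus. In 6 mice Pck1, the cytosolic phosphoenolpyruvate carboxykinase of gluconeogenesis and glyceroneogenesis, had been deleted in intestinal epithelial cells, and 6 littermates served as controls. All 12 mice had received 2.5% dextran sulfate sodium (DSS), a polymer that damages the mucosa and sets off colitis, over 7 days. The comparison therefore asks how the inflamed colon differs when its epithelium lacks Pck1. No mice without DSS, and no sorted epithelium, are among the libraries. The sources used here do not name the Cre driver behind the deletion or the age of the mice. Each library is 1 mouse and holds RNA of whole colon, so that fewer cells of a type and less RNA per cell cannot be told apart in any value below.

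Fatty acids are made in the cytosol from acetyl-CoA. ATP citrate lyase supplies the acetyl-CoA, acetyl-CoA carboxylase turns it into malonyl-CoA, and fatty acid synthase joins the units to palmitate. Elongases (Elovl) and desaturases (Scd, Fads) then lengthen the chains and add double bonds. The transcription factor SREBP-1, encoded by Srebf1, and the carbohydrate-responsive factor ChREBP, encoded by Mlxipl, are known to drive many of these genes. Acyl chains are loaded onto glycerol-3-phosphate by GPAT enzymes, onto lysophosphatidic acid by AGPAT enzymes, and after removal of the phosphate by lipins they end as triglyceride through DGAT enzymes, or as phospholipid once a choline or ethanolamine head group is added. Pck1 is linked to this route in liver and fat, where its enzyme carries out an earlier step of glyceroneogenesis, the pathway to glycerol-3-phosphate.

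Promoters of some genes are printed first, because SREBP-1 acts through the sterol regulatory element, commonly together with NF-Y at the CCAAT box. These genes were picked after their values were seen. Pcyt2, the lower gene with the smallest p in the main test, is not among them. Promoters were taken from RefSeq on build GRCm38.p6, from 250 bases before the transcription start to 50 bases from it, and 36 of the 44 genes had one. Capitals mark a match to TCACNCCAC (sterol regulatory element), CCAAT (NF-Y box) or CACGTG (E box) on either strand. The Gpat3 promoter (chr5:100845979-100846278, plus strand) belongs to the only gene of the 44 that was called in the main test. Those of Aacs (chr5:125475623-125475922, plus strand), Acly (chr11:100527951-100528250, minus strand) and Fasn (chr11:120824498-120824797, minus strand) belong to the 3 fatty acid synthesis genes with the smallest p. The Pcyt1a promoter (chr16:32430671-32430970, plus strand) is shown as one of the few with a sterol regulatory element.
Gpat3: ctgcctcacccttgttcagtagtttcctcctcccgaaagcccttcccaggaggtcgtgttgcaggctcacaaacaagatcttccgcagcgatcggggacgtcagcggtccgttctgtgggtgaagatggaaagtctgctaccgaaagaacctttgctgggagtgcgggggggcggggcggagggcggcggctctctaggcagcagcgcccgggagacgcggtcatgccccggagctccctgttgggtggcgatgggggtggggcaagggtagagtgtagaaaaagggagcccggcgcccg
Aacs: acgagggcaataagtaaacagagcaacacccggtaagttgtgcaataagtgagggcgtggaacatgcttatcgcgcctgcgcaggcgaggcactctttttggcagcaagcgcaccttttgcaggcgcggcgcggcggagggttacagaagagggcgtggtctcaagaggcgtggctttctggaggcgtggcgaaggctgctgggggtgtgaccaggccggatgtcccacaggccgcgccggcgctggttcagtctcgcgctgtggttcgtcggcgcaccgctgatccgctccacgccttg
Acly: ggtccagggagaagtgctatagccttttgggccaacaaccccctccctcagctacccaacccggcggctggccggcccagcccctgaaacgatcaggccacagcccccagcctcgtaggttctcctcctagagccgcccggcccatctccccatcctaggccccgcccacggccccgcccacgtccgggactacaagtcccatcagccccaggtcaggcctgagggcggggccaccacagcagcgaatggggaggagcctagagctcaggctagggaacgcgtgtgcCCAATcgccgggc
Fasn: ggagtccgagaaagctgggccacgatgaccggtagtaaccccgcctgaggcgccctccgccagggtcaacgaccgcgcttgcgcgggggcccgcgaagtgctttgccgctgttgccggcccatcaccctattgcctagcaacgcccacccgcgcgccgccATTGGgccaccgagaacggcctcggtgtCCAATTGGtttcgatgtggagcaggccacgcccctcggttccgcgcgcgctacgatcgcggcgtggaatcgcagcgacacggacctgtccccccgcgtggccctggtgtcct
Pcyt1a: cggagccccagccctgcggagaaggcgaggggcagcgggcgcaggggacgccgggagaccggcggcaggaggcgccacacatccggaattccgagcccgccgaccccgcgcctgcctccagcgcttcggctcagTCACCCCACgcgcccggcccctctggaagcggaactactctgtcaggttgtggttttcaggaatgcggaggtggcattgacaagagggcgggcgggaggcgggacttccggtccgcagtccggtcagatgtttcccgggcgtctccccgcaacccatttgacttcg

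The sterol element was found in 2 of the 36 genes, at position -116 from the start in the Pcyt1a promoter printed above and at -136 in 1 of the Mlxipl promoters. Counted by promoter, it stood in 3 of the 51 promoters of these genes (5.88%), of which 2 are overlapping Pcyt1a promoters that share the same site, and in 1.24% of all 32851 promoters of the table. The CCAAT box was found in 43.1% of the 51 promoters and in 37.4% of all. Fasn had 3 matches to it, 1 at -62 and 2 on the opposite strand at -90 and -59, of which the first and the last overlap, and Acly had 1 at position 38. The E box was found in 11.8% of the 51 and in 7.15% of all. The windows of Gpat3 and Aacs held none of these letters. These are matches of letters in a short window and were not tested against the values.

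Library totals ran from 15348192 to 18211663 counts in the knockout and from 15881625 to 19138507 in the control, and the 44 genes took 0.298% to 0.408% of a knockout library and 0.376% to 0.548% of a control library. Pck1 itself stood at 2.28, 3.35 and 7.32 CPM (counts scaled to library size; lowest, median and highest library) in the knockout and at 34.5, 47.0 and 84.7 CPM in the control, a log2 fold change of -3.66 ± 0.32 (SE, adjusted p = 0.000391), so the labels held in all 12 libraries. Markers of colon epithelium, neutrophils, macrophages, fibroblasts and smooth muscle were present in every library. Control replicate 4 had the highest summed neutrophil marker level of its group (584 CPM, control median 168) and knockout replicate 4 the lowest of its group (256 CPM, knockout median 489.8), so these 2 libraries lay nearest the other genotype, and counts are also given without them. Control replicate 6 carried far more exocrine pancreas marker RNA than any other library (24969 summed CPM, against 35.4 to 3151 in the others).

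Of the 44 genes, 43 had enough counts to be tested. Pnpla3, a lipase-like protein of liver lipid droplets, was left out of the test at 0 to 0.241 CPM. In edgeR's quasi-likelihood test over all 14393 genes, adjusted by Benjamini-Hochberg and read at 0.05, 1 of the 43 was called higher in the knockout, Gpat3, and 0 were called lower. The background was 4 genes called in each direction, 0.0278% of those tested. At an unadjusted p under 0.05, 12 of the 43 were lower and 3 higher, where 9.48% of all tested genes were lower and 13.1% higher. DESeq2 called 8 of the 43 lower and 3 higher, against 2.98% and 7.66% of all tested genes. In a simple simulation, described in the processing section, it made a larger share of false calls than edgeR. That simulation drew genes independently with the same dispersion for every gene. It therefore cannot show which test keeps its rate in the real libraries. In the authors' deposited table, 7 of the 44 were lower and 2 higher at an FDR under 0.05 (Fasn, Acaca, Acly, Acss2, Aacs, Scd2 and Pcyt2, and Gpat3 and Acsl4), against 1.7% and 4.65% of the 21899 genes. The knockout and control libraries did not overlap for 2 genes that were lower, Aacs and Pcyt2, and for 1 that was higher, Gpat3, where this held for 0.639% and 0.882% of tested genes. The median log2 fold change was -0.08 over the 43 genes and -0.03 over all tested genes. In 14 genes with small differences, all of them without a call in edgeR or DESeq2, the sign turned in at least 1 of the 26 alternatives given in the closing section, so that the counts of genes on each side of 0 are approximate.

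**Figure D1:**
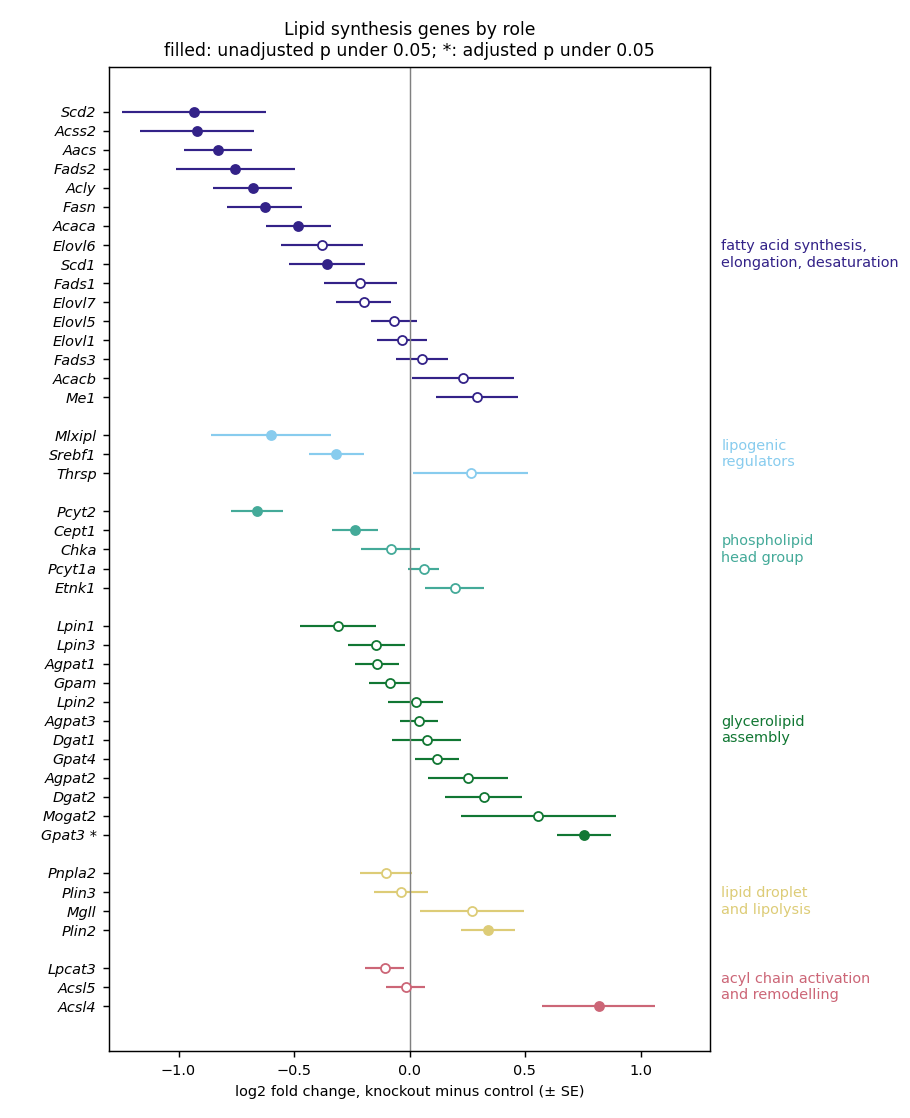
The log2 fold change of each of the 43 tested genes, knockout minus control (x axis, with SE), by role; filled points have an unadjusted p under 0.05 and the asterisk marks an adjusted p under 0.05. Of the 16 fatty acid synthesis genes 13 lie left of 0, and 8 of the 12 glycerolipid assembly genes lie right of it. Among all tested genes 54.9% lay below 0 and 45.1% above. Of the glycerolipid assembly genes only Gpat3 has a filled point, and several others turned sign in some alternatives. Gpat3, at 0.75, is the only gene with an asterisk.

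Fatty acid synthesis was the role with the most genes on the lower side. Of its 16 genes, 13 had a log2 fold change below 0 and 3 above, with a median of -0.37, where 54.9% of all tested genes lay below 0 and 45.1% above. At an unadjusted p under 0.05, 8 were lower and 0 higher, against 9.48% and 13.1% of all tested genes. None passed the adjusted threshold in edgeR, and DESeq2 called 7 of them lower (Fasn, Acaca, Acly, Acss2, Aacs, Scd2 and Fads2), against 2.98% of all tested genes. The genes with the smallest p were Aacs, Acly and Fasn, followed by Acss2 and Acaca. Of these, Acly, Fasn, Acss2 and Acaca feed or carry out the making of palmitate.

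Aacs (ENSMUSG00000029482) encodes acetoacetyl-CoA synthetase, which activates the ketone body acetoacetate in the cytosol for lipid synthesis. Its level in the control libraries was 92.8, 129 and 177 CPM (lowest, median and highest) and in the knockout 58.9, 72.4 and 81.5 CPM. All 6 knockout libraries lay below the lowest control, which was replicate 4. The log2 fold change was -0.83 ± 0.15 (SE), with an adjusted p of 0.0512 in edgeR and 6.83e-05 in DESeq2. The exact two-sided permutation test over all arrangements of the 12 libraries gave an unadjusted p = 0.00216, the smallest it can give. Groups that do not overlap always give this p, so it adds nothing to the separation.

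Acly (ENSMUSG00000020917), ATP citrate lyase, stood at 244, 343 and 441 CPM in the control and 126, 224 and 246 CPM in the knockout (lowest, median and highest). Of the 6 knockout libraries 5 lay below every control, and the exception, replicate 5, was just above control replicate 4. This gave a log2 fold change of -0.68 ± 0.17 (SE; edgeR adjusted p = 0.0589, exact permutation p = 0.00433). Fasn (ENSMUSG00000025153), fatty acid synthase, showed the same arrangement, with control libraries at 177, 231 and 330.4 CPM and knockout libraries at 104, 153 and 199 CPM. Here knockout replicate 6 was the library inside the control range. Its log2 fold change was -0.63 ± 0.16 (SE; edgeR adjusted p = 0.0615, DESeq2 adjusted p = 0.00873, exact permutation p = 0.00433).

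The other suppliers of carbon and reducing power did not all go one way. Acss2, which makes acetyl-CoA from acetate, had a log2 fold change of -0.92 ± 0.25 (SE, edgeR adjusted p = 0.0636), with control libraries at 49.0, 102 and 126 CPM and knockout libraries at 30.7, 48.1 and 77.3 CPM. Only 3 of its 6 knockout libraries lay below every control. Acaca, the acetyl-CoA carboxylase of cytosolic lipogenesis, had a log2 fold change of -0.48 ± 0.14 (adjusted p = 0.0744). Acacb, the carboxylase form tied to control of fatty acid oxidation at mitochondria, had a log2 fold change of 0.23 ± 0.22 (adjusted p = 0.58) and Me1, malic enzyme, a source of NADPH, one of 0.29 ± 0.18 (adjusted p = 0.355), with the groups overlapping for both.

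Among the desaturases, Scd2 (ENSMUSG00000025203), a stearoyl-CoA desaturase that makes monounsaturated chains, had the highest level of all 16 genes per unit length, at 380.1 ± 100.05 TPM in the control and 215 ± 95.4 TPM in the knockout (SD, n = 6). Its CPM values were 657, 1221 and 1487 CPM in the control and 183, 698 and 845 CPM in the knockout. Knockout replicates 2 and 3 lay below every control, and the other 4 lay within the span of control replicates 4 and 6. Scd2 had a log2 fold change of -0.93 ± 0.31 (SE; edgeR adjusted p = 0.102, exact permutation p = 0.0152). Fads2, the delta-6 desaturase that opens the route to long polyunsaturated chains, had a log2 fold change of -0.75 ± 0.26 (adjusted p = 0.108), and Scd1 one of -0.36 ± 0.16 (adjusted p = 0.217). Fads1, the delta-5 desaturase, had a log2 fold change of -0.21 ± 0.16 and Fads3, a fatty acid desaturase family member, one of 0.05 ± 0.11.

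The elongases showed smaller differences. Elovl6, which extends palmitate to stearate, had a log2 fold change of -0.38 ± 0.18 (SE, adjusted p = 0.225), and Elovl7, an elongase of saturated chains, one of -0.20 ± 0.12. Elovl5, which lengthens polyunsaturated chains, had a log2 fold change of -0.07 ± 0.10 and Elovl1, which makes very long chains, one of -0.03 ± 0.11. The genotypes overlapped in all 4 elongases.

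**Figure D2:**
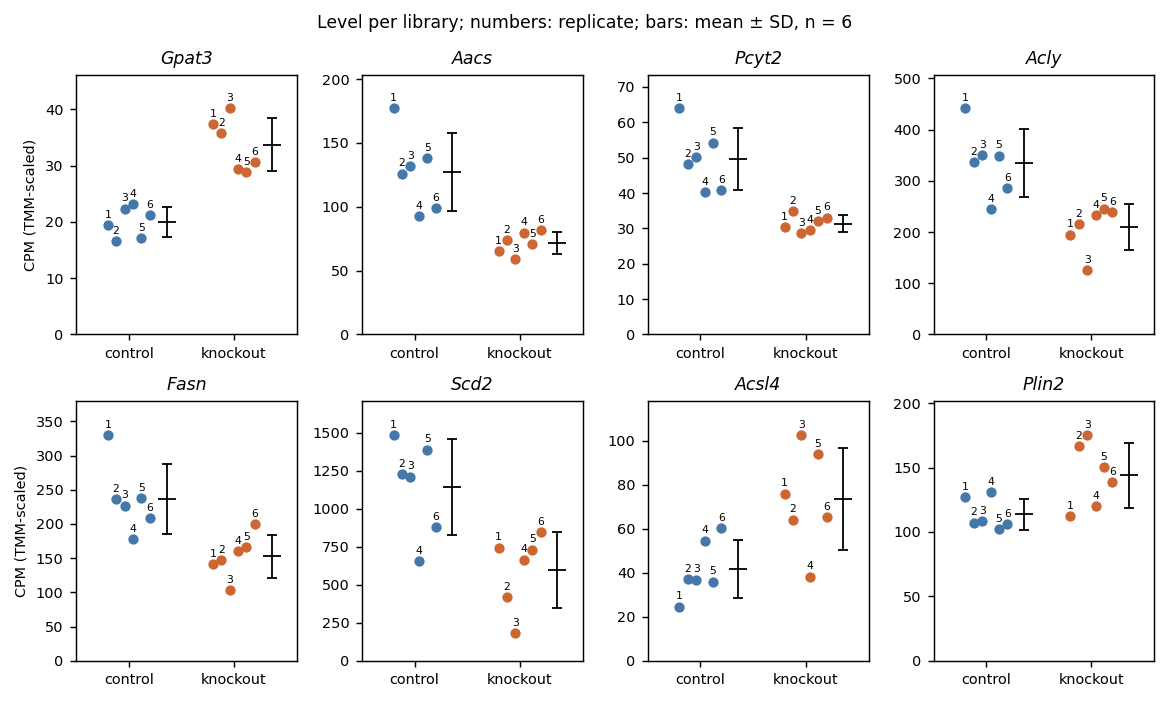
Level of 8 genes in each of the 12 libraries, in CPM after TMM scaling (y axis, from 0), with the replicate number beside each point and the mean ± SD of 6 libraries as bars. Knockout and control points are apart for Gpat3, Aacs and Pcyt2, and meet in Acly and Fasn through control replicate 4 and 1 knockout library each.

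Of the 3 regulators, Srebf1 (ENSMUSG00000020538), which encodes SREBP-1, stood at 61.0, 74.6 and 96.1 CPM in the control and 46.2, 62.8 and 67.2 CPM in the knockout (lowest, median and highest). The groups overlapped, with knockout replicate 3 well below the rest. Srebf1 had a log2 fold change of -0.32 ± 0.12 (SE, edgeR adjusted p = 0.133). Mlxipl, which encodes ChREBP, was scarce, at 3.23, 4.52 and 5.62 CPM in the control and 1.19, 3.22 and 3.97 CPM in the knockout. Its log2 fold change was -0.60 ± 0.26 (adjusted p = 0.191), and 3 of 6 knockout libraries lay below every control. Thrsp, the lipogenic protein Spot 14, was at 0.890, 1.49 and 1.83 CPM in the control and 0.864, 1.78 and 2.41 CPM in the knockout, a log2 fold change of 0.27 ± 0.25 (adjusted p = 0.577). Both Srebf1 and Mlxipl were lower at an unadjusted p under 0.05, as were 9.48% of all tested genes, and no regulator passed in DESeq2. SREBP-1 is also controlled by cleavage of its precursor protein, which RNA levels do not measure.

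Of the 5 phospholipid head group enzymes, 2 were lower at an unadjusted p under 0.05, Pcyt2 and Cept1, and none was called in edgeR. Among all tested genes 9.48% were lower at that threshold. Pcyt2 (ENSMUSG00000025137), the CTP:phosphoethanolamine cytidylyl transferase that activates ethanolamine, stood at 40.3, 49.1 and 63.9 CPM in the control and 28.6, 31.1 and 34.97 CPM in the knockout (lowest, median and highest). No knockout library reached the lowest control. The log2 fold change was -0.66 ± 0.11 (SE), with an adjusted p of 0.0512 in edgeR and 4.88e-05 in DESeq2. The unadjusted exact permutation p was 0.00216, again the smallest possible, which follows from the groups not overlapping.

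Etnk1, the ethanolamine kinase one step before Pcyt2, stood at 109, 125 and 133 CPM in the control and 106, 149 and 175 CPM in the knockout. Above every control lay 4 knockout libraries and below every control 2, so that the knockout was the more spread group, and the log2 fold change was 0.20 ± 0.13 (SE, adjusted p = 0.399). Cept1, the transferase that completes both phosphatidylcholine and phosphatidylethanolamine, had the highest level of this role per unit length, at 159.6 ± 18.3 TPM in the control and 140.2 ± 12.3 TPM in the knockout (SD, n = 6). In CPM it stood at 118, 138 and 155 CPM in the control and 98.4, 115 and 139 CPM in the knockout, a log2 fold change of -0.23 ± 0.10 (adjusted p = 0.18), and 4 of 6 knockout libraries lay below every control. In the choline branch, Pcyt1a, the choline counterpart of Pcyt2, had a log2 fold change of 0.06 ± 0.07 and Chka, choline kinase alpha, one of -0.08 ± 0.13. Over the 5 genes the median was -0.08.

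Glycerolipid assembly held the called gene. Gpat3 (ENSMUSG00000029314), a GPAT of the endoplasmic reticulum that adds the first acyl chain to glycerol-3-phosphate, stood at 16.6, 20.3 and 23.2 CPM in the control and 28.8, 33.2 and 40.2 CPM in the knockout (lowest, median and highest). Every knockout library lay above every control, the nearest being knockout replicate 5 and control replicate 4. Gpat3 rose 1.69-fold, from 19.97 ± 2.74 CPM in the control to 33.7 ± 4.72 CPM in the knockout (SD, n = 6). Its log2 fold change was 0.75 ± 0.12 (SE), with an adjusted p of 0.0425 in edgeR and 3.24e-06 in DESeq2. The unadjusted exact permutation p was 0.00216, which follows from the groups not overlapping. The edgeR call was lost when any 1 of 9 of the 12 libraries was left out, where the adjusted p reached 0.133 while the log2 fold change stayed between 0.70 and 0.80. In the GENCODE annotation the Gpat3 exons overlap 4930458D05Rik on the opposite strand and Gm42987 on the same strand, and the sources used here do not say how the counting treated strand or shared reads, so the Gpat3 value is uncertain to that extent.

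The 11 other genes of this role showed no call by edgeR or by DESeq2, and none had an unadjusted p under 0.05. Gpat4, also of the endoplasmic reticulum, had a log2 fold change of 0.12 ± 0.10 and Gpam, the mitochondrial form, one of -0.08 ± 0.09. Agpat2, an acyltransferase for the second chain, had the highest level of the role per unit length, at 107 ± 25.6 TPM in the control and 131 ± 28.2 TPM in the knockout (SD, n = 6). Its libraries lay at 69.7, 84.3 and 119 CPM in the control and 74.0, 96.4 and 149.9 CPM in the knockout, a log2 fold change of 0.25 ± 0.17 (SE, adjusted p = 0.418). Agpat1 had a log2 fold change of -0.14 ± 0.09 and Agpat3 one of 0.04 ± 0.08.

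Lpin1, a phosphatidate phosphatase that makes diacylglycerol, stood at 10.3, 15.03 and 19.0 CPM in the control and 9.50, 12.4 and 14.4 CPM in the knockout, a log2 fold change of -0.31 ± 0.17 (SE, adjusted p = 0.291). Its relatives Lpin2 and Lpin3 had log2 fold changes of 0.03 ± 0.12 and -0.14 ± 0.12. Dgat2, which makes triglyceride from diacylglycerol, stood at 61.3, 87.8 and 97.0 CPM in the control and 67.8, 101 and 138 CPM in the knockout. Above every control lay 3 knockout libraries, and the log2 fold change was 0.32 ± 0.17 (adjusted p = 0.275). Dgat1 had a log2 fold change of 0.07 ± 0.15. Mogat2, the monoacylglycerol acyltransferase known for fat absorption in the small intestine, was scarce here, at 1.51 to 5.80 CPM over all libraries, with a log2 fold change of 0.56 ± 0.33.

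Of the lipid droplet genes, Plin2 (ENSMUSG00000028494), which coats droplets in many cell types, stood at 102, 108 and 131 CPM in the control and 112, 144 and 175 CPM in the knockout (lowest, median and highest). Of the 6 knockout libraries 4 lay above every control, and replicates 1 and 4 lay inside the control range. Its log2 fold change was 0.34 ± 0.12 (SE), which did not pass in edgeR (adjusted p = 0.112) and did in DESeq2 (adjusted p = 0.0461); the exact permutation p was 0.026. Plin2 also had the highest level of this role per unit length, at 114 ± 15.6 TPM in the control and 149.7 ± 26.5 TPM in the knockout (SD, n = 6).

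Plin3, a second droplet coat protein, had a log2 fold change of -0.04 ± 0.12. Pnpla2, the lipase ATGL that starts triglyceride breakdown, stood at 101, 116 and 137 CPM in the control and 90.6, 105 and 131 CPM in the knockout, a log2 fold change of -0.10 ± 0.11 (SE, adjusted p = 0.65). Mgll, which splits monoacylglycerol in the last step, stood at 41.4, 54.0 and 79.1 CPM in the control and 51.6, 54.5 and 107 CPM in the knockout, a log2 fold change of 0.27 ± 0.22 (adjusted p = 0.522). The groups overlapped in both genes. Knockout replicates 2 and 3 lay above every control for Mgll.

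Among the acyl chain genes, Acsl4 (ENSMUSG00000031278), an acyl-CoA synthetase that prefers arachidonate and is known from ferroptosis, stood at 24.6, 37.1 and 60.2 CPM in the control and 38.2, 70.6 and 103 CPM in the knockout. All knockout libraries but 1 lay above every control, and the exception was replicate 4. The log2 fold change was 0.82 ± 0.24 (SE), with an adjusted p of 0.0784 in edgeR and 0.0184 in DESeq2 and an exact permutation p of 0.013. Acsl5, the other acyl-CoA synthetase of the list and the one of enterocytes, stood at 119, 140.3 and 158 CPM in the control and 128, 142 and 156 CPM in the knockout, a log2 fold change of -0.02 ± 0.09 (adjusted p = 0.936). Lpcat3, which puts polyunsaturated chains into phosphatidylcholine, stood at 81.1, 99.2 and 111 CPM in the control and 84.3, 88.3 and 102 CPM in the knockout, with overlapping groups and a log2 fold change of -0.11 ± 0.08 (adjusted p = 0.484).

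**Figure D3:**
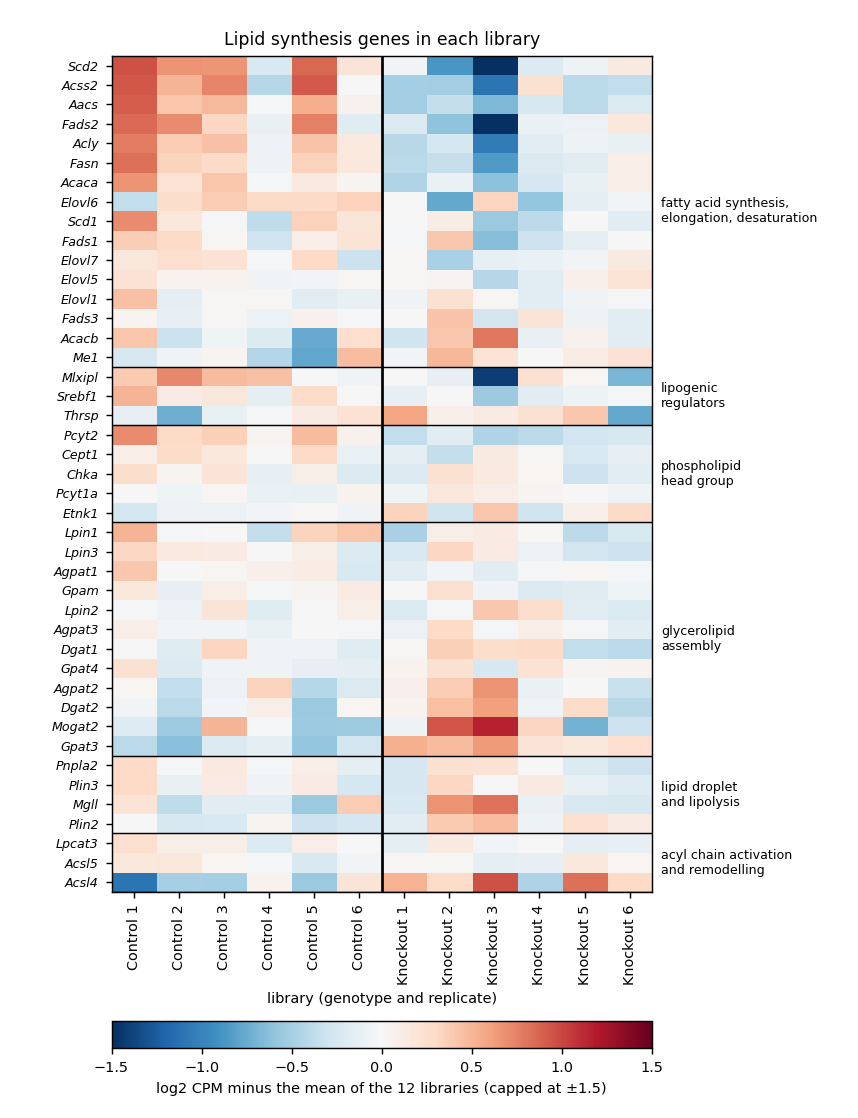
Each of the 43 tested genes (rows, by role and fold change) in each library (columns), as log2 CPM minus the gene's mean over the 12 libraries, from blue (lower) to red (higher). In the upper rows control replicate 1 is the reddest column and knockout replicate 3 the bluest, and control replicate 4 is pale, while most rows of glycerolipid assembly differ little between the genotypes.

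Set beside each other, fatty acid synthesis and the regulators had the lowest medians. The median log2 fold change was -0.37 in fatty acid synthesis, -0.32 in the regulators, -0.08 in the head group enzymes, 0.06 in glycerolipid assembly, 0.12 in the droplet genes and -0.02 in the acyl chain genes, against -0.03 over all tested genes. At an unadjusted p under 0.05, 8 of 16 fatty acid synthesis genes were lower and 0 higher. Of the 12 glycerolipid assembly genes 0 were lower and 1 was higher. Among all tested genes 9.48% were lower and 13.1% higher, so the glycerolipid counts are near that background. The mean log2 CPM of the 16 fatty acid synthesis genes, taken as a deviation from the mean of all 12 libraries, ran from -0.53 to -0.01 in the knockout and from -0.13 to 0.48 in the control. The groups met only through control replicate 4, the lowest control. For glycerolipid assembly the same range was -0.18 to 0.31 in the knockout and -0.20 to 0.09 in the control, and for the droplet genes -0.23 to 0.40 and -0.19 to 0.20, so the groups overlapped widely. The roles were chosen with these data known, and no test of the difference between roles was made.

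**Figure D4:**
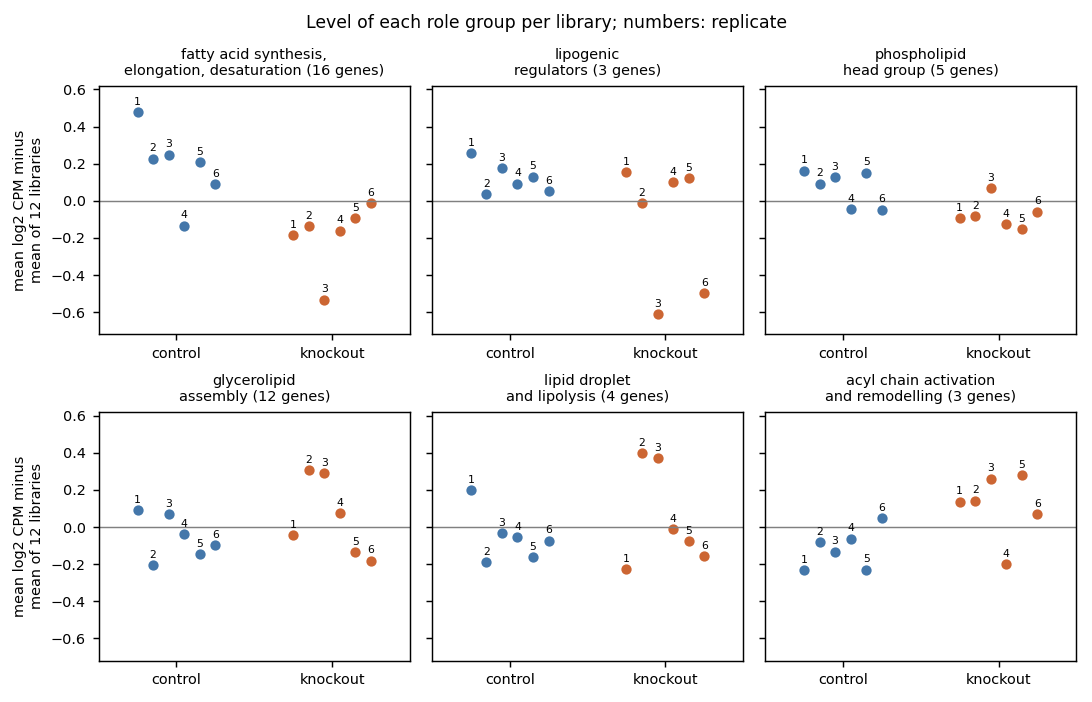
Level of each role in each library, as the mean log2 CPM of its genes minus the mean over 12 libraries (y axis), with replicate numbers beside the points. For fatty acid synthesis 5 controls lie above all 6 knockout libraries and control replicate 4, at -0.13, lies among them, whereas the ranges overlap for glycerolipid assembly and the droplet genes.

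Genes of related enzymes were grouped into families, and their shares of the family's summed TPM are given here as a description, with no test. Not every family serves the same step. Pcyt1a and Pcyt2 act in the choline and the ethanolamine branch, and the Fads genes encode different desaturases. Gpat3 made up 23.9% ± 1.83 of the summed TPM of the 3 GPAT genes in the control and 34.2% ± 4.99 in the knockout (SD, n = 6), ranges of 21.1% to 25.3% and 29.7% to 42.3% that did not overlap. Gpat4 kept the greatest mean share in both groups, at 55.0% and 48.6%. The summed GPAT level was 54.9 ± 4.27 TPM in the control and 67.9 ± 6.76 TPM in the knockout. Pcyt2 made up 60.3% ± 4.58 of the summed Pcyt1a and Pcyt2 level in the control and 48.8% ± 3.01 in the knockout, ranges of 55.1% to 66.8% and 44.1% to 52.8%, also without overlap. Gpat3 and Pcyt2 were already apart in CPM, so their shares are not a separate result. How often shares do not overlap in other gene families was not computed.

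Fads3 made up 9.15% ± 2.10 of the Fads total in the control and 15.34% ± 4.70 in the knockout, with ranges of 7.01% to 11.6% and 11.8% to 22.5% that nearly met. For Fads2, Scd2, Acaca and Acsl4 the ranges overlapped. Fads2 held 78.2% ± 4.49 of the Fads total in the control and 68.3% ± 8.46 in the knockout, and the summed Fads level was 187 ± 45.6 and 133 ± 38.6 TPM. Scd2 held 92.9% ± 1.41 and 88.7% ± 5.65 of the Scd total, which was 409 ± 105 and 237 ± 97.9 TPM. Acaca held 84.9% ± 3.04 and 76.6% ± 7.82 of the carboxylase total. Acsl4 held 19.4% ± 5.48 and 28.2% ± 7.09 of the total of Acsl4 and Acsl5. Scd1 and Scd2 are close copies in sequence, and the sources used here do not say how the authors' counting divided reads between them, so their shares are uncertain.

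**Figure D5:**
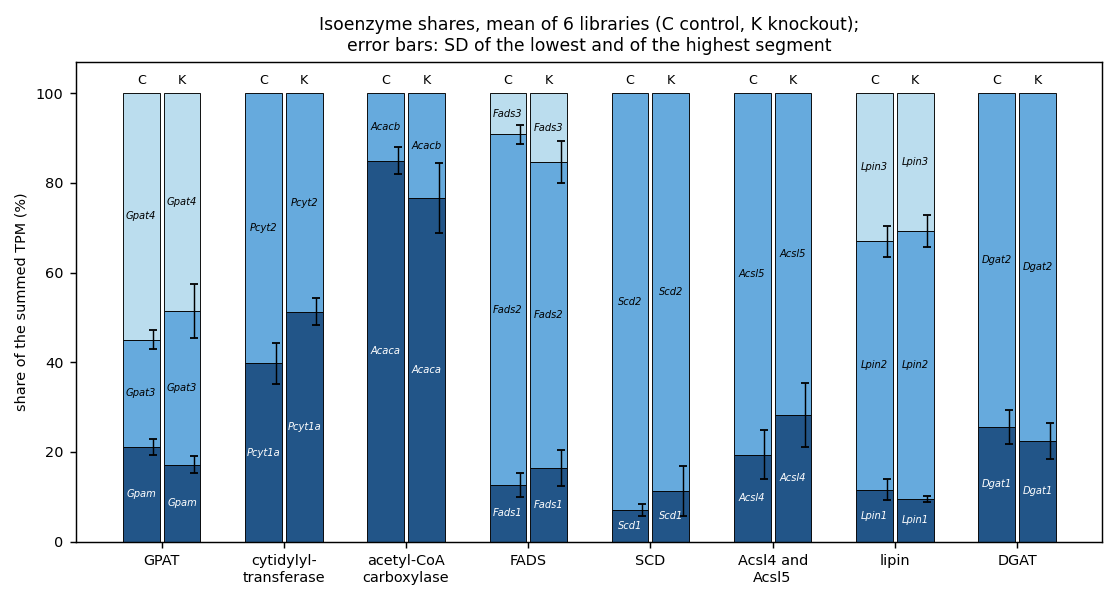
Share of each gene in the summed TPM of its family (y axis, percent, from 0), as the mean of 6 control (C) and 6 knockout (K) libraries, with the SD of the lowest and highest segment as error bars. The Gpat3 segment is 23.9% in the control and 34.2% in the knockout, and the Pcyt2 segment 60.3% and 48.8%.

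Other genes of these routes were read from 7 further lists. Of 10 genes of SREBP processing and LXR control, all tested, 3 were lower and 0 higher at an unadjusted p under 0.05, with a median log2 fold change of -0.04. Insig1, which holds SREBP precursors in the endoplasmic reticulum and is itself an SREBP target, stood at 67.8, 126 and 155 CPM in the control and 49.95, 61.4 and 72.4 CPM in the knockout (log2 fold change -0.95 ± 0.17, SE, edgeR adjusted p = 0.0512). Mlx, the partner of ChREBP, had a log2 fold change of -0.28 ± 0.09 (adjusted p = 0.0835). Of 15 other fatty acid synthesis and elongation genes, 10 were tested, with a median of -0.14, and 3 were lower and 1 higher. Hacd3, a dehydratase of elongation, had a log2 fold change of -0.32 ± 0.12, and Elovl4, an elongase of very long chains at under 4 CPM in every library, one of 1.61 ± 0.38 (adjusted p = 0.0563).

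The further glycerolipid and phospholipid genes lay on both sides of 0. Of 11 other glycerolipid genes 9 were tested, with a median of -0.01, and 2 were lower and 1 higher. Gpd1, which makes glycerol-3-phosphate from dihydroxyacetone phosphate, had a log2 fold change of -0.43 ± 0.13 (SE, adjusted p = 0.0771) and Cds2, a CDP-diacylglycerol synthase, one of 0.24 ± 0.10 (adjusted p = 0.19). Of 14 other phospholipid genes 13 were tested, with a median of -0.13, and 2 were lower and 1 higher. Pgs1, of cardiolipin synthesis, had a log2 fold change of 0.37 ± 0.12 (adjusted p = 0.0929) and Pisd, which makes phosphatidylethanolamine in mitochondria, one of -0.22 ± 0.09 (adjusted p = 0.169).

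Of 11 other acyl chain genes, all tested, 3 were lower and 2 higher, with a median of -0.01. The acyl-CoA synthetase Acsl1 had a log2 fold change of -0.35 ± 0.10 (adjusted p = 0.0667) and Acsl6, scarce in these libraries, one of 0.98 ± 0.28 (adjusted p = 0.0721). Of 12 other droplet and lipolysis genes 10 were tested, with a median of 0.13, and 1 was lower and 4 higher. Plin1, the droplet coat of adipocytes, stood at 1.11, 2.84 and 4.36 CPM in the control and 0.127, 0.533 and 1.93 CPM in the knockout, a log2 fold change of -1.71 ± 0.57 (adjusted p = 0.101), and Hilpda, a hypoxia-induced inhibitor of lipolysis, one of 0.71 ± 0.24 (adjusted p = 0.103). Of 8 genes of fatty acid uptake and chylomicron assembly 5 were tested, with a median of 0.11, and 1 was lower and 1 higher. Fabp2, the fatty acid binding protein of enterocytes, had a log2 fold change of -0.52 ± 0.23 (adjusted p = 0.19) and Mttp, which loads lipid onto apolipoprotein B, one of 0.60 ± 0.24 (adjusted p = 0.162). No gene of the 7 lists passed the adjusted threshold in edgeR, and their counts at an unadjusted p are to be read against the backgrounds of 9.48% and 13.1% given above.

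Markers of the cell types in whole colon also stood at different levels in the genotypes. The counts below at an unadjusted p under 0.05 are to be read against 9.48% of all tested genes lower and 13.1% higher. Of 8 colon epithelium markers, 7 had a log2 fold change below 0 and 4 were lower at an unadjusted p under 0.05 (Epcam, Cdh1, Krt8 and Vil1), with summed levels of 8277 to 9428 CPM in the knockout and 8760 to 12313 CPM in the control. All 8 neutrophil markers lay above 0, 6 of them at an unadjusted p under 0.05, and their sum ran from 256 to 1175 CPM in the knockout and from 138 to 584 CPM in the control. The 8 macrophage markers were also all above 0, at 1061 to 1953 and 753 to 1314 summed CPM, with 5 higher at that threshold. Of the 8 fibroblast markers 7 lay above 0 and 6 were higher, at 4331 to 9991 and 2768 to 5368 CPM. The 8 smooth muscle markers were all below 0, at 1853 to 3003 and 1901 to 4288 CPM, with 3 lower. Adipocyte markers were present in both groups, Adipoq included, with 6 of 8 below 0, at 64.9 to 235 CPM and 71.5 to 151 CPM, and 1 was lower (Plin1) and 2 were higher (Fabp4 and Lipe). Exocrine pancreas markers were all 8 below 0, at 35.4 to 1680 and 74.1 to 24969 CPM, with 1 lower. None of the defining markers was at 0 in all libraries.

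The lipid genes' values were also taken from models that carried a marker level as a covariate. With the neutrophil level in the model, the median of the fatty acid synthesis genes was -0.17 and no gene of the 43 was called. Gpat3 then had a log2 fold change of 0.50 (adjusted p = 0.486), Aacs one of -0.52 (adjusted p = 0.922) and Pcyt2 one of -0.51 (adjusted p = 0.816). Other genes came closer to 0. Acss2 went from -0.92 to -0.23, Scd2 from -0.93 to -0.26, Fads2 from -0.75 to -0.17, Acly from -0.68 to -0.33, Fasn from -0.63 to -0.32, Acaca from -0.48 to -0.29, Plin2 from 0.34 to 0.17 and Acsl4 from 0.82 to 0.40, all log2 fold changes. With the colon epithelium level in the model, the fatty acid synthesis median was -0.29, no gene was called, and Gpat3 had a log2 fold change of 0.70 (adjusted p = 0.362). With the adipocyte level, 8 of the 43 were called lower and 4 higher, where 259 and 701 of all 14393 tested genes were called. With the exocrine pancreas level, 4 were called lower and 1 higher, where 50 and 62 of all tested genes were called. A covariate that itself differs by genotype takes up part of the genotype difference, so these values do not divide the result between cell makeup and the deletion, and the part of cell makeup in the lipid values was not tested further. Without both replicate 4 libraries, edgeR called 6 of the genes lower (Fasn, Acaca, Acly, Acss2, Aacs and Pcyt2) and 3 higher (Gpat3, Plin2 and Acsl4), where 4.88% of all tested genes were called lower and 8.4% higher. These libraries were left out after the data were seen, because they lay nearest the other genotype, which by itself widens the gap between the groups, so the counts are a description only. The fatty acid synthesis median was then -0.35. Without control replicate 6, the library with the most pancreas RNA, Aacs and Pcyt2 were called lower and Gpat3 higher, where 0.699% and 1.88% of all tested genes were called.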

How the data were processed

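Colon RNA-seq of 12 DSS-treated mice was used, 6 knockout and 6 control, grouped by the labels, which name each library as 1 mouse. Per the labels' protocols, RNA was taken up in Trizol and prepared with the SMARTER mRNA-Seq kit. The authors deposited 1 table of 21899 genes. Per the file headers it holds whole-number read counts per library and TPM per library, which the authors scaled by gene length and by depth. The deposited table also holds the authors' mean TPM per group, a signal with 0 replaced by 0.001, a log2 fold change of these means, and p-values with an FDR, whose test is not stated. The submitters' processing notes name GRCm38, mm10 and mm39 without their roles; the aligner, counter and use of strand are not given there. The table held 0 columns of other samples.

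Counts were tested in R 4.3.3 with edgeR 4.0.16, with filterByExpr (minimum count 10, minimum total 15; 14393 genes kept), TMM scaling, and the quasi-likelihood F test without robust estimation, with Benjamini-Hochberg adjustment over all genes. The biological coefficient of variation was 0.262. The SE is the absolute log2 fold change over the square root of F. Log2 CPM used a prior count of 2. Single genes were also tested by the exact two-sided permutation of 6 against 6 libraries (smallest p 0.00216). Totals of 15348192 to 19138507 counts per library set the counting error. Libraries were not alike within counting noise (lowest chi-square per gene 19.4 over 66 library pairs).

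DESeq2 1.42.0, limma 3.58.1, other scalings, filters, covariates and libraries left out were the alternatives. Data were simulated in 5 sets, with the same dispersion for every gene. At a threshold of 0.05 the mean share of false calls was 0.0406 for edgeR, 0.0423 for voom and 0.111 for DESeq2. Genes were drawn independently there, so the simulation cannot show which test keeps its rate in the real libraries. The genes and all lists were chosen with earlier results of these data known. Described in detail were the called genes, those called by DESeq2 with groups that do not overlap, the 3 genes of each role with the smallest p, and the gene of each role with the highest control TPM; of each further list, the 2 genes with the smallest p. The genes of the member plot, the other levels given for Acss2, Mogat2, Insig1 and Plin1, and the promoters shown were picked after their values were seen. Exons of 9 of the 44 genes (Acsl5, Acss2, Agpat1, Agpat2, Cept1, Elovl1, Lpcat3, Pcyt1a and Srebf1) overlap another gene of the table on the opposite strand in the GENCODE annotation, so their values are uncertain.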

Additional observations from a re-analysis of the deposited data

Results flagged for a closer look

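Among 20 genes described in detail, in 40 groups of 6 libraries, 1 library stood apart from its group. Srebf1 in knockout replicate 3 was at 46.24 CPM, where the nearest other knockout library was at 60.63 CPM. That gap was 0.685 of the group's whole range, above Dixon's 95% critical value for 6 values. Chance flags about 1 in 20 groups. The same library had the lowest values of its group for Scd2, Fasn, Acly, Aacs and Pcyt2 and the highest for Gpat3 and Plin2.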

How the results depend on the processing

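The labels state no pairing of the mice by replicate number. The following correlations showed no sign of one, but they cannot exclude a shared litter or batch. Same-numbered libraries correlated at -0.496 to 0.078 in their deviations from the group means, 0 of 6 pairs were over 0.1, and 0 of 6 correlated best with their own number. With the replicate block in the model, 1 gene of all tested was called lower and 0 higher, with 0 of the 44 genes called higher and 0 lower. Depth limited only the scarce genes, such as Mlxipl, Thrsp and Mogat2; Pnpla3 could not be tested.

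Over all tested genes, edgeR's 4 calls in each direction moved with most choices. Genes called higher numbered 1103 with DESeq2, 33 with its size factors in edgeR, 230 with library size only, 30 with voom, 1549 with voom quality weights, 355 with limma-trend on log2(TPM + 1), 62, 701, 0 and 0 with the pancreas, adipocyte, epithelium and neutrophil levels as covariates, and 1209 without both replicate 4 libraries (chosen after seeing the data). Genes called lower numbered 429, 19, 45, 19, 1339, 48, 50, 259, 1, 1 and 702 in the same order. With 1 library left out in turn, 0 to 870 were called higher and 2 to 402 lower.

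Of the 44 genes, those called lower numbered 8 with DESeq2, 2 with its size factors, 2 with library size only, 2 with voom, 11 with quality weights, 2 with limma-trend, 4 and 8 with the pancreas and adipocyte covariates and 6 without both replicate 4 libraries, and 0 to 6 with 1 library left out. Those called higher numbered 3 with DESeq2, 2 with quality weights, 4, 0 and 0 with the adipocyte, epithelium and neutrophil covariates and 3 without both replicate 4 libraries, and 0 to 2 with 1 library left out. The libraries that mattered were knockout replicate 4 and control replicate 4, without which more genes were called (5 and 6 lower), control replicate 6 (2 lower), and each of the 9 others, without which none was. At an unadjusted p under 0.05, 7 were lower with the epithelium covariate, 7 with limma-trend and 3 with the neutrophil covariate, and 5, 5 and 1 were higher with the adipocyte covariate, without both replicate 4 libraries and with the neutrophil covariate; the ranges with 1 library left out were 9 to 13 and 3 to 4.

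The fatty acid synthesis median stayed below 0 in all 26 alternatives, from -0.41 to -0.17, the latter with the neutrophil covariate. The head group median became 0.0311 with the epithelium covariate and -0.22 with quality weights, and the acyl chain median 0.13 with limma-trend. Gpat3 was called in 14 of 26 alternatives, and Aacs and Pcyt2 in 12 each, with 1 direction throughout. Of 1118 single values, 40 turned sign, in 14 genes, none of them called in edgeR or DESeq2. With the neutrophil covariate these were Acacb -0.0787, Agpat2 -0.13, Dgat1 -0.0036, Elovl7 0.0038, Mgll -0.18 and Plin3 0.01. With the epithelium covariate they were Acsl5 0.0139, Chka 0.0311, Elovl1 0.0716, Plin3 0.0852 and Pnpla2 0.0253. Quality weights gave Acsl5 0.0154, Agpat3 -0.0312, Dgat1 -0.11, Fads3 -0.0211 and Lpin2 -0.12. Limma-trend gave Acsl5 0.13, Elovl1 0.0346 and Plin3 0.0331, library size only gave Acsl5 0.0261, Elovl1 0.0091 and Plin3 0.0044, no filter gave Acsl5 0.0054, and leaving out both replicate 4 libraries gave Acsl5 0.0023, Elovl1 0.0062 and Lpin2 -0.0574. With 1 library left out, the ranges were -0.0614 to 0.0167 for Acsl5, -0.0198 to 0.0787 for Agpat3, -0.0827 to 0.0683 for Elovl1, -0.12 to 4e-04 for Elovl5, -0.0403 to 0.108 for Fads3, -0.0618 to 0.0717 for Lpin2 and -0.11 to 0.0235 for Plin3. The cause of these changes was not tested.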
